A study of Danio rerio with 3 samples.

Results

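Hox genes encode the homeodomain transcription factors that mark position along the body, and their expression was followed here in endothelial cells of the zebrafish anal fin. Members were the rows of the gene tables whose names begin with hox, a cluster letter from a to d and a number. They came to 34 of 25839 rows. Of these 34 genes, 23 (67.6%) had at least 1 molecule somewhere and 11 were at 0. Over all rows the share with at least 1 molecule was 62.0%, so detection of Hox genes was near that of any row.

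The cells came from anal fins of immature zebrafish at Stage II-III. After dissection of 80 fins, cells positive for the reporter fli1a:dsRed were sorted as single cells into plates of 384 wells, and 3 plates were sequenced. The reporter transgene uses sequence of fli1a, an ETS factor gene of endothelium that some blood and mesenchymal cells also express. All plates carry the same labels, so they are repeats of 1 group without an untreated or wild-type control, and whether they came from separate fish is not stated. Every comparison below is therefore between kinds of wells within the plates.

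Hox genes lie in clusters, and their order along the chromosome follows the order in which they act from head to tail. Genes at the same place in different clusters form a paralog group. Groups are numbered 1 to 13, from genes of the hindbrain to genes of the trunk, tail and outer fin. Many adult cells keep the code they acquired in the embryo, fibroblasts and endothelial cells of mammals among them. An anal fin lies behind the trunk, which makes the groups at the 9 to 13 end the ones that mark its level.

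Expression was measured by MARS-seq, which tags the 3′ end of each captured transcript with a unique molecular identifier (UMI), so that a UMI stands for 1 captured molecule and levels are not scaled by gene length. Plates 1, 2 and 3 held 559559, 481392 and 221176 UMIs, with medians of 1064.5, 914.5 and 364.5 UMIs per well. Levels below are UMIs per 1000000 UMIs (CPM), and a detection limit is the level that 3 UMIs would give. That limit was 5.36, 6.23 and 13.6 CPM in plates 1, 2 and 3, and 2.38 CPM over all plates. Compared over all genes, every pair of plates differed beyond sampling noise, with chi-square values of 1.93 to 5.39 per degree of freedom. Over Hox genes alone that value was 0.892 for plates 1 and 2, 1.26 for plates 1 and 3, and 0.908 for plates 2 and 3. It rests on 14, 15 and 11 Hox genes for these pairs, against 4107 to 5139 genes in the comparison over all genes. Better agreement of Hox genes between plates is not read from it. The same 384 well barcodes were used on every plate. In a listing by the authors of the wells they analysed there are 1036 of the 1152 wells, and all 116 wells off that list are in plate 3.

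Together the 34 genes gave 390 UMIs in plate 1, 272 in plate 2 and 129 in plate 3. These sums corresponded to 697, 565 and 583 CPM, a mean of 615 ± 71.5 CPM (SD, n = 3 plates). For scale, fli1a itself averaged 563 ± 37.6 CPM. A Hox UMI was found in 190, 152 and 90 wells of plates 1, 2 and 3, or 432 of 1152 wells. The share per plate was 49.5% (44.4 to 54.6%) in plate 1, 39.6% (34.7 to 44.7%) in plate 2 and 23.4% (19.3 to 28%) in plate 3, with exact binomial 95% intervals. Plate 3 was low in this share and also shallowest, while its Hox level per UMI lay between those of the other plates. All intervals and limits in the text cover counting error only.

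Single wells held few Hox molecules. No Hox UMI was seen in 720 wells, 1 UMI in 235 and 2 in 111, and the fullest well had 9. At least 2 different members appeared together in 163 wells, and the most in 1 well was 6 members. The fullest well, on plate 1 with 2893 UMIs, held 5 UMIs of hoxb8a, 2 of hoxb9a and 1 each of hoxa9a and hoxb7a. All these genes belong to groups 7 to 9. The next 2 wells, with 8 Hox UMIs each, were also on plate 1 and mixed group 3 genes with genes of groups 7 to 9, one of them with a hoxa13a UMI.

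**Figure D1:**
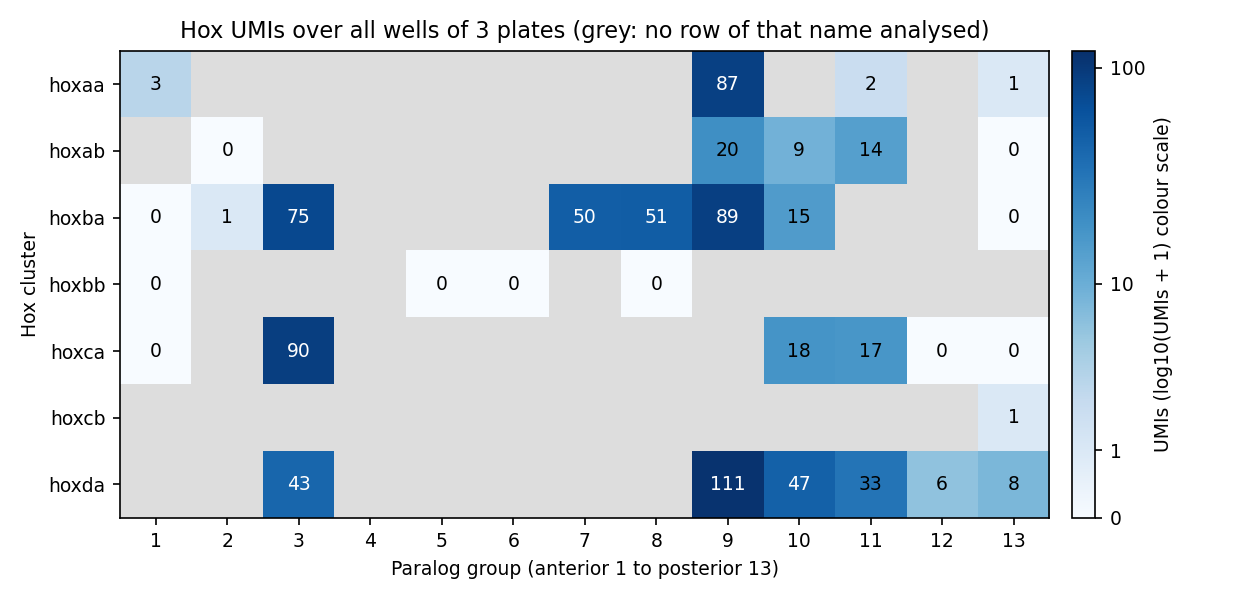
UMIs of each Hox gene over all wells of the 3 plates, with paralog group across (anterior 1 to posterior 13) and Hox cluster down; the number in a cell is its UMI count, the colour follows log10(UMIs + 1), and grey cells had no row of that name. Groups 3 and 9 to 11 had UMIs in several clusters and groups 7 and 8 in hoxba, with 111 for hoxd9a as the highest cell and 0 in all 4 hoxbb cells.

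By paralog group, UMIs were found in 10 of the 12 groups that had a row. Group 9 led with 157, 105 and 45 UMIs in plates 1, 2 and 3, a mean of 234 ± 41.0 CPM (SD, n = 3). Group 3 followed with 98, 77 and 33 UMIs, or 161 ± 13.03 CPM. The ranges of these groups over plates did not overlap, since the lowest plate of group 9 had 203 CPM and the highest plate of group 3 had 175 CPM. Then came group 10 at 69.6 ± 8.30 CPM, group 11 at 54.3 ± 8.05 CPM, group 8 at 37.5 ± 11.6 CPM and group 7 at 36.2 ± 12.3 CPM, each with UMIs in every plate. Plate ranges of neighbours in this order (groups 10 and 11, 11 and 8, and 8 and 7) overlapped. Within plates, group 10 was above group 11 and group 11 above group 8 in each of the 3 plates, while groups 8 and 7 changed order between plates.

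At both ends of the clusters the counts were close to the limit. Group 12 had 3, 1 and 2 UMIs and group 13 had 2, 0 and 8 UMIs in plates 1, 2 and 3. Group 1 was represented by 3 UMIs of hoxa1a, all in plate 1, and group 2 by 1 UMI of hoxb2a in plate 3. Groups 5 and 6 each had a single row, hoxb5b and hoxb6b, and both stood at 0 of 1262127 UMIs, below the limit of 2.38 CPM. In RefSeq's gene table of the assembly GRCz12tu both overlap the span of hoxb1b, which also stood at 0. How reads from such an overlap were counted is not given, so the limit holds only if they were not dropped. Group 4 had no row and was not analysed here.

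Genes of groups 9 to 13 supplied 235 of 390 Hox UMIs in plate 1, 159 of 272 in plate 2 and 84 of 129 in plate 3. The posterior share was thus 60.3%, 58.5% and 65.1%, and over all plates 60.4% (56.9 to 63.9%, exact binomial 95% interval). It exceeded 50% in each of the 3 plates, but groups 9 to 13 also hold 20 of the 34 rows. The share of UMIs was thus near the share of rows, and no posterior enrichment is read from it. The remaining 313 UMIs were from groups 1 to 8, and 208 of them carried the name of a group 3 gene.

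The group 3 names have a similar limit. RefSeq's gene table of the assembly GRCz12tu lists 49 protein-coding Hox genes in zebrafish, and all 34 members were matched in it. Of the 15 others, 9 overlap in that table the span of a group 3 gene that had a row. The span of hoxb3a overlaps hoxb4a, hoxb5a and hoxb6a, and that of hoxc3a overlaps hoxc4a, hoxc5a, hoxc6a, hoxc8a and hoxc9a. The span of hoxd3a overlaps hoxd4a. The deposited counts rest on another build, GRCz10, and the annotation behind them is not given in the sources used here. Molecules of group 3 genes and of these overlapping genes therefore cannot be told apart. With group 3 left out, the posterior share was 80.5% in plate 1, 81.5% in plate 2 and 87.5% in plate 3. In every plate that was over 20 percentage points higher. Group 3 is not a posterior group, so leaving it out could only raise the share. The posterior share of rows rises too, though group 3 holds 3 of the 34 rows against 208 of the 791 Hox UMIs. Among the overlapping genes named above, only hoxc9a is posterior. No posterior enrichment is read from the rise.

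Among the clusters, hoxba gave 281 UMIs and hoxda 248, followed by hoxca with 125, hoxaa with 93 and hoxab with 43. The cluster hoxcb had 1 UMI of its single row. None of the 4 rows of hoxbb had a UMI. All 6 rows of hoxda were detected, covering groups 3 and 9 to 13.

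Individual members spanned a wide range. At least 10 UMIs were counted for 15 of 34 members (44.1%), a depth that 32.3% of all rows in the tables reached. Another 8 members had 1 to 9 UMIs. A UMI was present in each of the 3 plates for 17 members. In group 9, hoxd9a was the most abundant Hox gene of all, with 55, 45 and 11 UMIs in plates 1, 2 and 3 and a mean of 80.5 ± 26.8 CPM. It was found in 89 wells and ranked above 94.7% of all rows by UMIs. Its level in plate 3, 49.7 CPM, was lower than the 98.3 and 93.5 CPM of the other plates.

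The other group 9 genes differed in how evenly they were spread. The gene hoxb9a had 44, 32 and 13 UMIs, or 68.0 ± 10.01 CPM, in 77 wells. Its neighbour in rank hoxa9a, whose mammalian counterpart acts in blood progenitors and endothelium, had 47, 25 and 15 UMIs, or 67.9 ± 16.03 CPM. The paralog hoxa9b, retained from the genome duplication of teleost fish, was lower in every plate, with 11, 3 and 6 UMIs and 17.7 ± 10.6 CPM. How reads shared by such duplicates were assigned is not stated in the sources used here.

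In group 3, which acts in hindbrain and pharyngeal arches of the embryo, hoxc3a had 42, 33 and 15 UMIs and hoxb3a 35, 27 and 13. Their levels, 70.5 ± 3.99 and 59.1 ± 3.25 CPM, had the smallest SDs among the 5 highest members. The remaining gene of the group, hoxd3a, had 21, 17 and 5 UMIs and 31.8 ± 8.05 CPM.

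**Figure D2:**
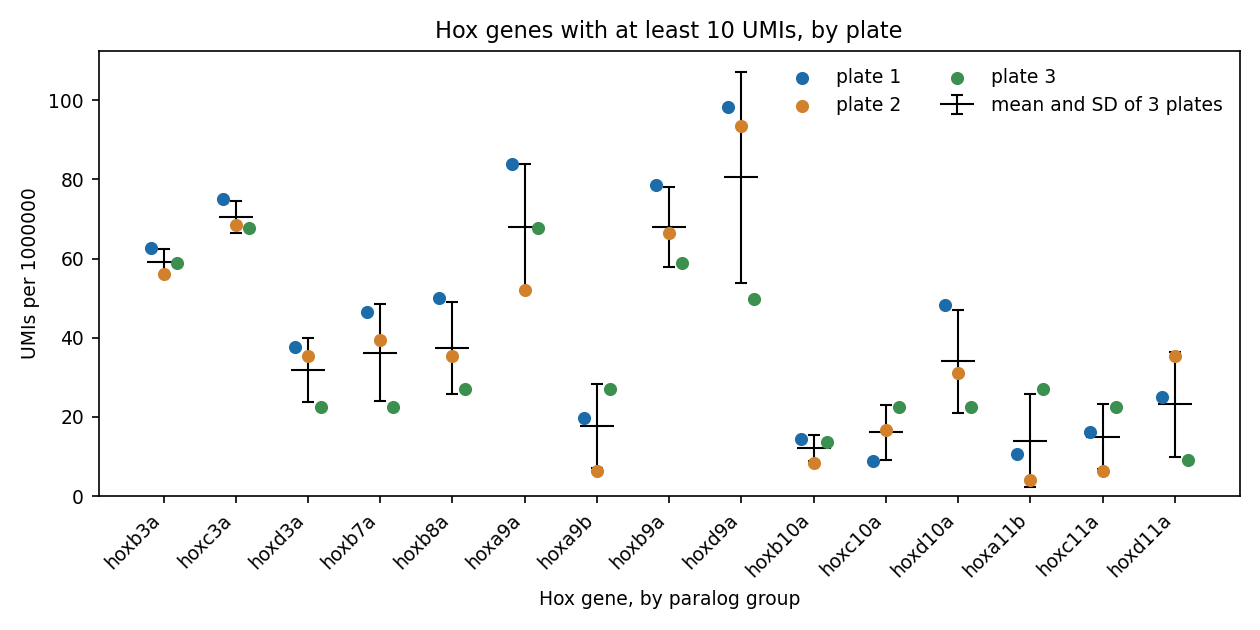
Level in UMIs per 1000000 of the 15 Hox genes with at least 10 UMIs, ordered by paralog group; coloured points are the 3 plates, the long bar is their mean and the error bar 1 SD. The genes hoxc3a, hoxb9a, hoxa9a and hoxb3a stayed above 50.0 in every plate, hoxd9a did so in plates 1 and 2, and genes of groups 10 and 11 lay lower.

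The plate values of these 5 genes, hoxd9a, hoxc3a, hoxb9a, hoxa9a and hoxb3a, overlapped, except that every plate of hoxc3a lay above every plate of hoxb3a. The next member, hoxb8a, reached at most 50.0 CPM in a plate, below the lowest plates of hoxc3a (67.8 CPM), hoxb9a (58.8 CPM), hoxb3a (56.1 CPM) and hoxa9a (51.9 CPM). Only hoxd9a, through plate 3, overlapped it.

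Groups 7 and 8 specify trunk levels and were each represented by 1 gene. The gene hoxb8a had 28, 17 and 6 UMIs in plates 1, 2 and 3, or 37.5 ± 11.6 CPM, and hoxb7a had 26, 19 and 5 UMIs, or 36.2 ± 12.3 CPM. Both were lowest in plate 3. The duplicate hoxb8b was at 0.

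Group 10, which shapes the lumbar vertebrae in mice, was led by hoxd10a. It had 27, 15 and 5 UMIs, or 34.0 ± 13.1 CPM. The other members were lower, with 5, 8 and 5 UMIs of hoxc10a (16.1 ± 6.85 CPM), 8, 4 and 3 of hoxb10a (12.1 ± 3.27 CPM) and 4, 3 and 2 of hoxa10b. In plate 3, hoxd10a and hoxc10a had the same count.

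Group 11 acts in the mouse forearm, sacrum and kidney. Here hoxd11a had 14, 17 and 2 UMIs, or 23.1 ± 13.2 CPM. The counts of hoxc11a were 9, 3 and 5 (15.0 ± 8.24 CPM) and those of hoxa11b 6, 2 and 6 (14 ± 11.8 CPM). The plate values of all 3 overlapped. The duplicate hoxa11a had 2 UMIs in all, fewer than hoxa11b, whereas in group 9 the a copy was the higher one.

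The most posterior genes were scarce. Group 12 was represented by hoxd12a, with 3, 1 and 2 UMIs in plates 1, 2 and 3, while hoxc12a was at 0. In group 13, the genes that pattern the outer ends of fins and limbs and the tail tip, hoxa13a and hoxc13b had 1 UMI each, both in plate 1. No UMI was seen for hoxa13b, hoxb13a and hoxc13a.

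The remaining group 13 gene, hoxd13a, had 0, 0 and 8 UMIs in plates 1, 2 and 3. Its level in plate 3 was 36.2 CPM. With none among 559559 UMIs of plate 1 and 481392 of plate 2, it was below the limits of 5.36 and 6.23 CPM there. The 8 UMIs were in 8 different wells of plate 3, with 142 to 1503 UMIs per well, in 5 of the plate's columns. By coordinate these wells were I13, H5, J5, I2, C6, E6, O6 and G12, so most lay in the adjacent columns 5 and 6. A marker of endothelium, lymphatic or blood vessel was present in 7 of the 8 wells, another Hox gene in 3, and a fibroblast marker in 1 well, which had 8 fibroblast UMIs. Of the 8 wells, 2 were aqp8a.1-high and the other 6 had neither class marker at the thresholds given below. Why the gene was seen on 1 plate was not tested.

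Members at 0 over all plates were hoxb1a, hoxb1b, hoxc1a, hoxa2b, hoxb5b, hoxb6b, hoxb8b, hoxc12a, hoxa13b, hoxb13a and hoxc13a. A gene at 0 is below the limit of 2.38 CPM over all plates and is not shown to be absent. For the overlapping hoxb1b, hoxb5b and hoxb6b this limit holds only if reads from their overlap were counted, which is not stated.

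Hox levels per UMI had no common direction with well depth. Within each plate, wells were split by depth into 3 sets of 128. In the deepest set the Hox level was 654, 544 and 595 CPM in plates 1, 2 and 3. In the shallowest set it was 786 (554 to 1084), 427 (239 to 705) and 477 (155 to 1114) CPM, with exact Poisson 95% intervals that included the value of the deepest set in each plate. The share of wells with a Hox UMI did follow depth. It was 71.1%, 71.1% and 46.1% in the deepest set of plates 1, 2 and 3, and 21.9%, 9.38% and 3.91% in the shallowest.

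Whether blood and lymphatic endothelium differ in Hox expression was asked in wells separated by a marker of each. The gene aqp8a.1, an aquaporin, marked the blood vessel class. Wells were called aqp8a.1-high at 3 or more aqp8a.1 UMIs making up at least 5000 CPM of the well, with no lyve1a UMI. Wells with at least 1 UMI of lyve1a, the lymphatic hyaluronan receptor, and less aqp8a.1 were called lyve1a-positive. Among listed wells, 168 (73, 70 and 25 by plate) were aqp8a.1-high and 251 (116, 99 and 36) lyve1a-positive. Another 84 wells had both markers, with aqp8a.1 at its cut-offs and a lyve1a UMI, and 533 had neither. Many wells lay near the cut-offs: 112 wells were aqp8a.1-high at 10000 CPM, and 128 were lyve1a-positive at 2 lyve1a UMIs.

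The sums of the marker lists contain these class genes and are given as a description. The 8 blood vessel markers with a row, aqp8a.1 included, summed to 23018 to 29800 CPM in aqp8a.1-high and 4525 to 5071 CPM in lyve1a-positive sums. The 7 lymphatic markers, lyve1a included, summed to 575 to 1123 CPM in aqp8a.1-high and 4343 to 5687 CPM in lyve1a-positive sums. With aqp8a.1 and lyve1a left out, the edgeR test described below called 5 of 6 blood vessel markers tested higher and 4 of 4 lymphatic markers tested lower in aqp8a.1-high wells. The exception was plvapb, read from its row vsg1, with a log2 fold change of 0.09. Over all 1203 genes tested, 74 were called higher and 55 lower. All 11 endothelial markers with a row were detected in both classes. Of the 10 tested, 2 were called higher in aqp8a.1-high wells, cdh5 and pecam1, with log2 fold changes of 2.23 and 1.04. The only erythrocyte marker tested, hbz, was called higher too, at 2.95. In plates 1, 2 and 3 the erythrocyte markers summed to 1063, 387 and 118 CPM in aqp8a.1-high wells. In lyve1a-positive wells those sums were 29.7, 190 and 0 CPM. Wells of the aqp8a.1-high class were shallower, with a median of 984 UMIs against 1350 UMIs in lyve1a-positive wells.

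In aqp8a.1-high wells the Hox level was 703, 537 and 591 CPM in plates 1, 2 and 3, against 636, 547 and 719 CPM in lyve1a-positive wells. The class was higher in plate 1 and lower in plates 2 and 3, and the ranges overlapped. Means were 610 ± 84.4 CPM in aqp8a.1-high and 634 ± 86.1 CPM in lyve1a-positive wells (SD, n = 3 plates each). The difference of -23.5 CPM did not exceed the spread, with a two-sided exact sign-flip permutation p of 0.75, where 0.25 is the smallest that 3 plates can give. Summed over plates, 129 UMIs against 264 UMIs gave a ratio of aqp8a.1-high over lyve1a-positive of 1.04, with an exact 95% interval of 0.832 to 1.28. That interval holds counting error and no spread between plates, and the pooled ratio and the mean difference over plates pointed in opposite directions. The levels are not shown to be equal.

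**Figure D3:**
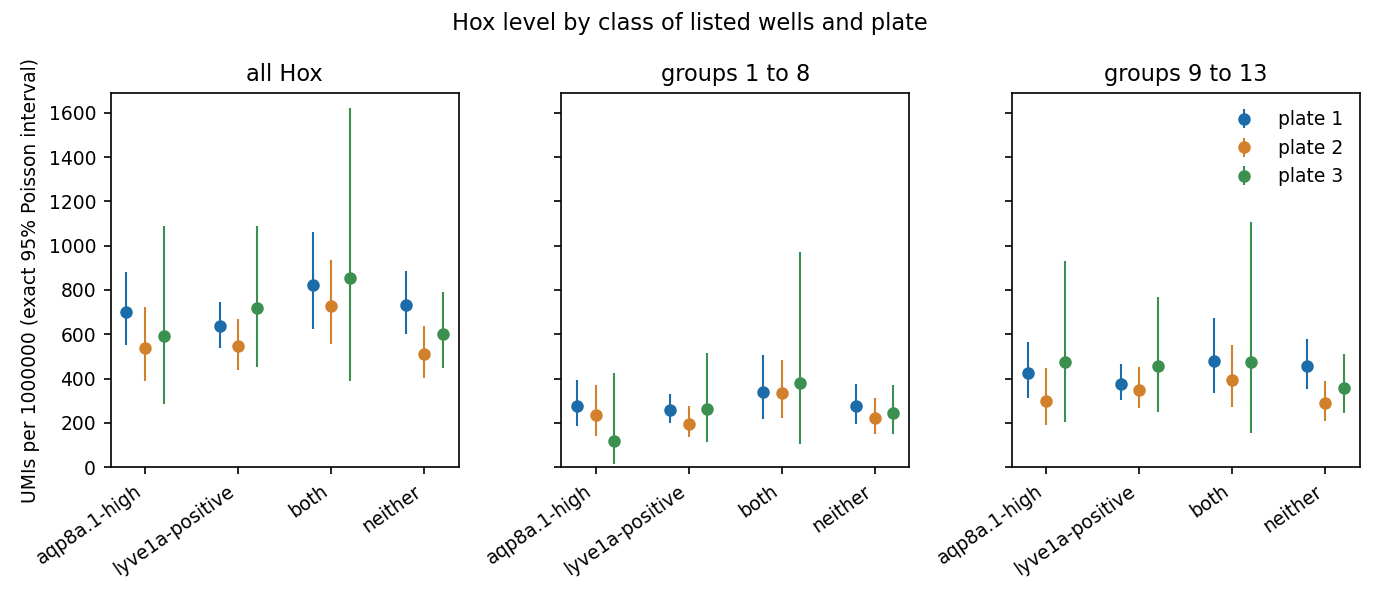
Hox level in UMIs per 1000000 for 4 classes of listed wells, as all members, groups 1 to 8 and groups 9 to 13; points are plates and bars are exact 95% Poisson intervals. Values for aqp8a.1-high and lyve1a-positive wells overlap in each panel. The wells with both markers, aqp8a.1 at its cut-offs and a lyve1a UMI, lie at 728 to 853 for all members.

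Groups 1 to 8 and groups 9 to 13, taken separately, gave a similar picture. The first set includes the group 3 rows, whose molecules cannot be told apart from those of overlapping genes, the posterior hoxc9a among them. Groups 1 to 8 had 277, 237 and 118 CPM in aqp8a.1-high wells and 258, 196 and 261 CPM in lyve1a-positive wells. The classes overlapped, with means of 211 ± 82.7 CPM in aqp8a.1-high and 239 ± 36.9 CPM in lyve1a-positive wells, an exact permutation p of 1, and a ratio of 1.06 (0.742 to 1.497). The low value of the aqp8a.1-high class in plate 3 rested on 2 UMIs. Groups 9 to 13 had 425, 300 and 473 CPM in aqp8a.1-high wells and 377, 351 and 458 CPM in lyve1a-positive wells. Their means were 399 ± 89.5 CPM in aqp8a.1-high and 395 ± 55.6 CPM in lyve1a-positive wells, with an exact permutation p of 1 and a ratio of 1.02 (0.769 to 1.35). Group 13 had 2 UMIs in aqp8a.1-high wells, both of hoxd13a in plate 3, and 2 in lyve1a-positive wells, of hoxa13a and hoxc13b in plate 1. This ratio of 2.12 had an interval from 0.154 to 29.2. In plate 3 the detection limits within the classes were 177 CPM for aqp8a.1-high and 98.0 CPM for lyve1a-positive wells, so a difference in a single scarce gene was not detectable there.

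The share of wells with a Hox UMI was compared before and after thinning. A Hox UMI was found in 52.1%, 38.6% and 36.0% of aqp8a.1-high wells of plates 1, 2 and 3 and in 57.8%, 51.5% and 44.4% of lyve1a-positive wells, lower in the first class on every plate. The exact permutation p of 0.25 was the smallest possible. After each well had been thinned to 300 UMIs, with 4 aqp8a.1-high and 13 lyve1a-positive wells too shallow to enter, the shares were 15.5%, 7.25% and 12.5% against 9.65%, 12.0% and 18.8%. Direction then varied by plate, with an exact permutation p of 0.75, on 19 aqp8a.1-high and 28 lyve1a-positive wells with a Hox UMI. Neither comparison could reach 0.05, and the part of depth was not tested.

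Gene by gene, 11 members had at least 10 UMIs in both classes together. Their pooled levels were higher in aqp8a.1-high wells for 5 and lower for 6, with ratios from 0.707 (hoxa9b) to 1.73 (hoxd11a) and a median of 0.984. All 11 exact intervals included 1. None of these 11 differed in the same direction in all 3 plates. Among members with fewer UMIs, hoxc11a was higher in aqp8a.1-high wells of every plate, on 1 UMI per plate against 2, 1 and 1 UMIs in lyve1a-positive wells. By contrast hoxa10b was lower in every plate, at 0 UMIs against 1, 1 and 2 UMIs in lyve1a-positive wells, and all these counts are under the limit of 3 UMIs. The most abundant, hoxd9a, had 10, 5 and 0 UMIs in aqp8a.1-high wells and 21, 16 and 3 in lyve1a-positive wells, a ratio of 0.795 (0.408 to 1.47). For hoxa9a the counts were 6, 8 and 1 in aqp8a.1-high wells against 18, 3 and 0 in lyve1a-positive wells, a ratio of 1.51 (0.726 to 3.08) with opposite directions in plates 1 and 2.

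**Figure D4:**
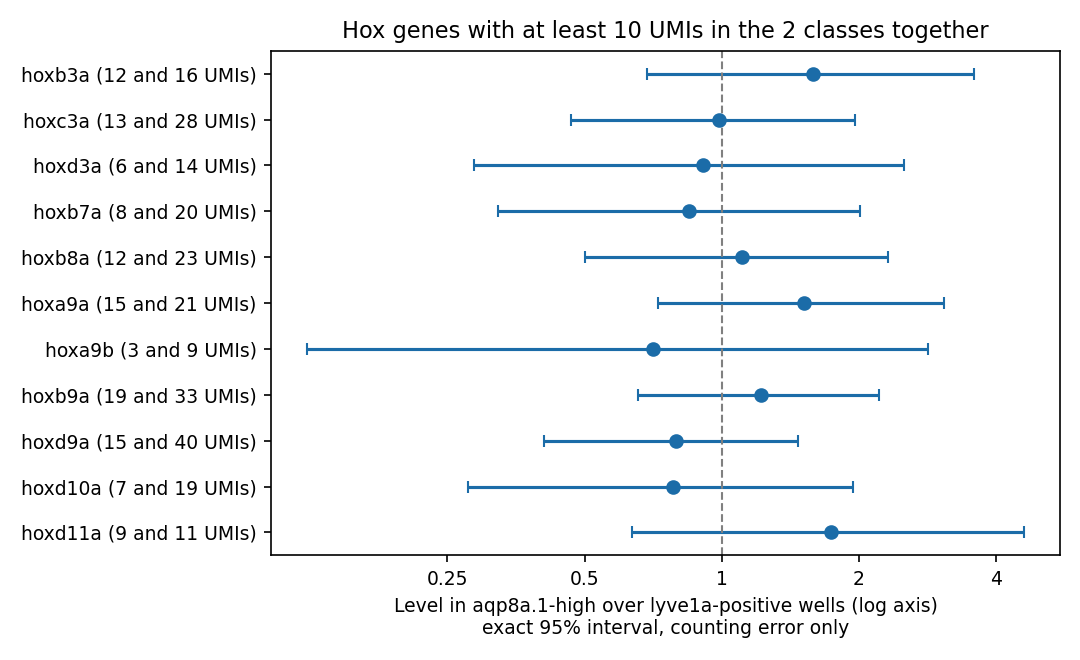
Ratio of the level in aqp8a.1-high over lyve1a-positive wells, on a log axis, for the 11 Hox genes with at least 10 UMIs in both classes together; UMIs of aqp8a.1-high wells are given first in each label, and bars are exact 95% intervals of counting error. The ratios run from 0.707 to 1.73, and every bar crosses 1.

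The same question was put across all genes with edgeR's quasi-likelihood test on sums per plate and class, with plate as a block and Benjamini-Hochberg adjustment. Of 1203 genes that passed the expression filter, 129 differed at an adjusted p under 0.05 (10.7%), 74 higher and 55 lower in aqp8a.1-high wells, and no Hox gene was abundant enough to pass the filter. Without the filter, 22 Hox genes entered and 0 were called, against 0.621% of the 14002 genes tested. None of the 22 had an unadjusted p under 0.05, and the lowest adjusted p was 0.985 in edgeR. In that fit the median log2 fold change was -0.52 over the Hox genes and -0.40 over all genes. In plates 1 and 2 alone, hoxa9a, hoxb9a and hoxd9a passed the filter and 0 of 3 were called, against 10.6% of 1840 genes, with a lowest adjusted p of 0.614 in edgeR and none under 0.05 unadjusted. DESeq2, run on the filtered genes, therefore tested no Hox gene.

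Hox proteins bind DNA together with TALE homeodomain partners of the Pbx, Meis and Pknox families, and 13 of 14 such genes with a row were detected. The most abundant was pknox2, with 96, 98 and 45 UMIs in plates 1, 2 and 3 and a mean of 193 ± 18.4 CPM, more than any Hox gene. Next were pbx4 at 57.5 ± 16.1 CPM, pbx1a at 50.6 ± 27.9 CPM, pknox1.2 at 39.6 ± 25.6 CPM and meis2a at 34.1 ± 12.0 CPM. The lowest of those with at least 20 UMIs were pbx2 at 30.2 ± 8.08 CPM and pknox1.1 at 23.2 ± 5.26 CPM. Only pknox2 passed the filter of the class comparison. It had 48 UMIs in aqp8a.1-high wells and 70 in lyve1a-positive wells, with a log2 fold change of 0.58 ± 0.36 (SE) and an adjusted p of 0.415 in edgeR.

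Genes that set or keep Hox expression were found for 21 of 22 rows. Retinoic acid, which sets the anterior Hox domains in the embryo, was represented by its degrading enzyme cyp26b1 at 173 ± 32.7 CPM and its receptors rarga at 117 ± 14.7, rxraa at 81.7 ± 19.9, raraa at 58.6 ± 31.5 and rarab at 31.1 ± 5.70 CPM. The histone methyltransferases kmt2a and kmt2bb, of the Trithorax type that keeps genes active, stood at 76.3 ± 9.90 and 72.8 ± 24.5 CPM. Polycomb genes, whose products keep Hox genes silent, were lower, with rnf2 at 38.6 ± 11.8, ezh2 at 28.9 ± 16.3, suz12b at 28.2 ± 1.91, eed at 24.8 ± 15.1 and ezh1 at 17.1 ± 5.14 CPM. Early Hox activators of the tail were close to 0, with 1 UMI of cdx1b and none of cdx4. Only cyp26b1, rarga and rxraa passed the filter of the class comparison, and none was called by edgeR, with log2 fold changes of 0.12, -0.23 and 0.60.

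Of 27 genes known from fin position and outgrowth, 12 were detected and only tbx5a had 20 or more UMIs. This T-box gene, known from pectoral fins and forelimbs and the heart, had 16, 14 and 6 UMIs in plates 1, 2 and 3, a level of 28.3 ± 1.02 CPM. The pelvic fin genes tbx4 and pitx1 were at 0. Within the classes tbx5a had 10 UMIs in aqp8a.1-high wells and 6 in lyve1a-positive wells, a ratio of 3.53 (1.16 to 11.8, counting error only). It did not pass the filter. Without the filter its log2 fold change was 1.55 ± 0.90 (SE) with an adjusted p of 0.985 in edgeR, so the difference was not called.

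Genes that accompany Hox expression were sought by comparing 410 listed wells with a Hox UMI and 626 without one. Hox-positive wells were deeper, with a median of 1412.5 UMIs against 477 UMIs. A marker of endothelium, lymphatic or blood vessel was found in 98.5% of Hox-positive wells and 87.1% of Hox-negative wells. With plate as a block, edgeR called 10 of 2274 genes (0.44%) at an adjusted p under 0.05, and all 10 were lower in Hox-positive wells. No gene was called higher in this fit, while 3 were called higher without plate 3 and 3 when only wells with a UMI of groups 9 to 13 counted as Hox-positive. The 7 lymphatic markers summed to 2600 to 2892 CPM in Hox-positive and 1830 to 2206 CPM in Hox-negative sums. For the 8 blood vessel markers the sums were 9236 to 10853 CPM and 9404 to 11454 CPM. None of the 6 lymphatic and 8 blood vessel markers tested was called. The 6 lymphatic log2 fold changes were all positive, from 0.16 (prox1a) to 0.49 (nrp2a), with a lowest unadjusted p of 0.0026 (lyve1a) in edgeR. Of the 8 blood vessel markers only plvapb was positive, at 0.17. The lowest was plvapa, read from its row si:dkey-208k22.3, at -0.68 with an unadjusted p of 0.0012 in edgeR. Why the sums differ was not tested.

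Of the 10 genes, 4 were on a blood cell marker list used here, hbbe2 and hbz as erythrocyte and mmp9 and mmp13a as neutrophil markers. Embryonic globin hbbe2 had 2.63, 75.6 and 0 CPM in Hox-positive sums of plates 1, 2 and 3, against 233, 751 and 37.9 CPM in Hox-negative sums. It was lower in every plate, with a log2 fold change of -3.81 ± 0.34 (SE, adjusted p = 3.4e-12 in edgeR). For hbz, another embryonic globin gene, values were 7.90, 85.5 and 30.7 CPM in Hox-positive and 228, 1056 and 25.2 CPM in Hox-negative sums, so plate 3 did not share the direction. The matrix metalloproteinase gene mmp13a had 23.7, 6.57 and 107 CPM in Hox-positive and 417, 62.1 and 631 CPM in Hox-negative sums, and mmp9 36.9, 6.57 and 199 against 328, 16.9 and 1628 CPM. Both were lower in every plate. Further genes called were csf1rb, a receptor gene of the macrophage lineage, the cathepsin S gene ctssb.1, and coro1a, an actin regulator of leukocytes, which were 8.45-, 7.70- and 5.94-fold lower in Hox-positive wells. The last 3 were si:ch211-212k5.4, si:ch211-214p16.1 and MEPCE, at 5.52-, 5.36- and 1.65-fold lower. Each of these 6 genes was lower in every plate.

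The called genes differed in how concentrated they were. The 3 fullest wells held 73.8% of hbbe2 UMIs, 74.3% of hbz, 61.7% of mmp13a and 51.4% of mmp9, against 33.3% of coro1a, 15.0% of si:ch211-212k5.4 and 6.57% of MEPCE. A single well held 112 of 202 hbbe2 UMIs, and a single well 161 of 261 hbz UMIs. The edgeR p-values take no account of this spread between wells. Without the plate block 0 genes were called in edgeR, with 101 at an unadjusted p under 0.05, although the log2 fold changes of the 10 genes stayed negative, from -3.74 (mmp9) to -0.99 (MEPCE). Without the 29 listed wells that had 3 or more UMIs of the neutrophil, macrophage or erythrocyte list, a set chosen after the data were seen, 0 were called in edgeR, with 159 at an unadjusted p under 0.05. Some of the called genes belong to those lists, so leaving out the wells lowers their counts by construction.

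The Hox level of those 29 wells is a description, since markers already called lower in Hox-positive wells helped to choose them. They held 9 Hox UMIs among 51659, or 174 CPM (80 to 331, exact Poisson 95% interval), against 746 UMIs and 658 CPM (612 to 707) in the other 1007 listed wells. By plate these wells held 4, 4 and 1 Hox UMIs, the last below the limit of 3 UMIs, so only plates 1 and 2 give levels, of 199 and 262 CPM in these wells and 716 and 575 CPM in the others. The median depth was 1296 UMIs in the blood marker wells and 751 UMIs in the others. A Hox UMI was found in 20.7% of blood marker wells and 40.1% of the others.

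**Figure D5:**
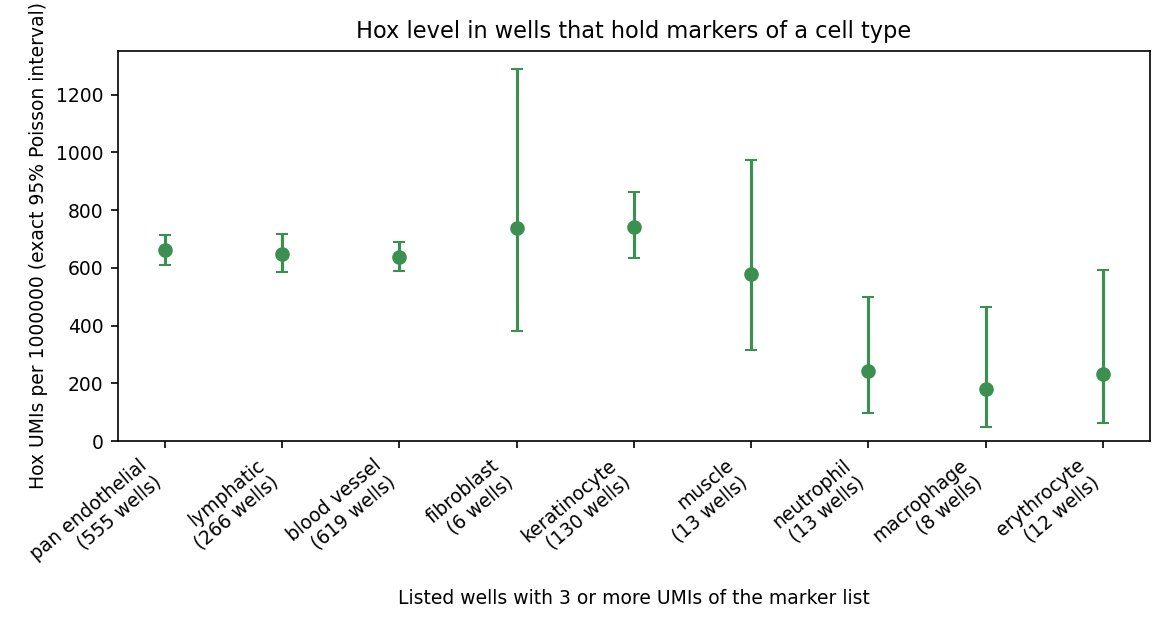
Hox level in UMIs per 1000000 of listed wells with 3 or more UMIs of a marker list, with the number of such wells under each name and exact 95% Poisson intervals; a well can count under several lists. Wells with endothelial, lymphatic or blood vessel markers lie between 637 and 662, and those with neutrophil, macrophage or erythrocyte markers between 181 and 242. The blood cell points rest on 7 (neutrophil), 4 (macrophage) and 4 (erythrocyte) Hox UMIs.

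Wells with UMIs of the marker lists of other fin cell types were also measured. Levels were 662 CPM (611 to 716) in 555 wells with at least 3 endothelial UMIs, 742 CPM (634 to 864) in 130 wells with at least 3 keratinocyte UMIs, and 739 CPM (382 to 1290) in 6 wells with at least 3 fibroblast UMIs, which held 12 Hox UMIs. The 13 wells with at least 3 muscle UMIs had 579 CPM (317 to 972). On the keratinocyte list, krt4 had 865 UMIs over all wells and krt15 325, and the next, epcam, had 28. A UMI of that list was in 47.6% of aqp8a.1-high and 51.0% of lyve1a-positive wells, so wells with it are not called keratinocytes. At a cut-off of 1 UMI the level was 620 CPM in fibroblast-marker and 647 CPM in endothelial-marker wells. At that cut-off it was 639 CPM (531 to 763) in neutrophil-marker wells, so the low level there was seen only at 3 UMIs. Macrophage-marker wells had 283 CPM (146 to 494) and erythrocyte-marker wells 492 CPM (403 to 594). The fibroblast interval spans the others, and a well can count under several lists, since each list was counted by itself. Wells without any endothelial UMI had 432 CPM (280 to 638) at a median of 158.5 UMIs. No well is marked as empty and no cell type on the plates is certain to lack Hox RNA, so no baseline for free RNA is at hand. The blood marker wells are not used as one, because genes already called lower in Hox-positive wells helped to choose them. The part of free RNA in the levels was not tested.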

How the data were processed

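Per plate, the authors deposited raw UMI counts for every gene in every well, without normalization. Bowtie2 and GRCz10 appear in the submitters' processing notes; annotation, strand use and UMI collapsing are not given there. Members, classes and lists were chosen with earlier results of these data known. Hox rows were summed over all wells. Class comparisons used the wells the authors list as analysed, summed per plate and class, without a doublet caller. The test was edgeR 4.0.16 under R 4.3.3, with plate as a block, its own filter on low genes, TMM scaling and a threshold of 0.05, both classes of a plate sharing its sort and library. DESeq2 1.42.0 was an alternative, as were other filters, cut-offs, depth minimums and leaving out each plate. The edgeR and DESeq2 fits were also run on simulated sums modelled on the aqp8a.1-high and lyve1a-positive classes. Those sums had no difference between plates and no clumping of UMIs in single wells. The Hox-positive comparison was not simulated, and no result here is read from the simulation. Intervals are exact at 95%. Detection limits are the level of 3 UMIs and are not such intervals, whose upper end for 0 UMIs over all plates is 2.92 CPM. Members with at least 10 UMIs, list genes with at least 20 and genes passing a test were named by rule. RefSeq names came from GRCz12tu, whose coordinates are not printed. The p-values compare sums per plate, so they do not measure spread between wells. In edgeR the spread between plates is estimated partly from other genes, and it may be technical. The SE beside an edgeR log2 fold change is its absolute value divided by the square root of the test's F. It was derived in this way and is not an output of the fit.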

Additional observations from a re-analysis of the deposited data

Results flagged for a closer look

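A Hox signal was also present in data that the class comparisons did not use. The 116 wells of plate 3 that are off the authors' list of analysed wells held 36 Hox UMIs among 76768, or 469 CPM, against a detection limit of 39.1 CPM. They lay in 22 of these wells. The median over all 116 wells was 296.5 UMIs. The listed wells of plate 3 held 93 Hox UMIs, or 644 CPM. The reason these wells were left off the list is not given in the sources used here.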

How the results depend on the processing

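The Hox total stayed between 574 and 640 CPM without 1 plate, with 20 to 23 genes and 9 or 10 groups detected and a posterior share of 59.4% to 62.7%. Between aqp8a.1-high and lyve1a-positive wells, DESeq2 called 43 genes in place of 129, and leaving out a plate gave 37 to 195. The all-Hox difference of -23.5 CPM turned positive in all wells (19.9 CPM), at the 10000 CPM cut-off (46.3 CPM) and at 2 lyve1a UMIs (41.3 CPM). Leaving out a plate moved it from -68.8 to 28.6 CPM, groups 1 to 8 from -62.2 to 30.0 CPM, groups 9 to 13 from -17.8 to 31.8 CPM and group 13 from -4.24 to 59.1 CPM, and the cause was not tested. No direction is read from these differences. For Hox-positive against Hox-negative wells the count of 10 genes became 4 in DESeq2, 27 without the filter, 19 (3 higher) for groups 9 to 13, 0 without the replicate block, 0 without blood marker wells, and 8 to 17 without a plate (3 higher of the 17). Without the plate pairing the class comparison gave 91 calls. Depth limits single members: a gene under 14.6 CPM in aqp8a.1-high or 6.90 CPM in lyve1a-positive sums lies below the limit.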

Other observations

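Among homeobox genes outside the Hox clusters, 4 were picked after their values had been seen because edgeR's quasi-likelihood test called them higher in aqp8a.1-high than in lyve1a-positive wells. Over all genes tested 10.7% were called, the homeobox genes tested were not tallied, and pknox2, one of them, was not called. The mesenchyme homeobox gene meox1 had 231, 450 and 177 CPM in aqp8a.1-high wells of plates 1, 2 and 3, against 33.9, 107 and 98.0 CPM in lyve1a-positive wells, with an adjusted p of 4.4e-06 in edgeR. Every plate of the first class lay above every plate of the second, and meox1 was called in 10 of 10 settings. For hopx, which encodes a small homeodomain protein that does not bind DNA, the means were 479 ± 53.7 CPM in aqp8a.1-high and 173 ± 9.40 CPM in lyve1a-positive wells (SD, n = 3 plates each), called in 11 of 11 settings. The LIM homeodomain gene isl1l was 2.63-fold higher and called in 8 of 11 settings, and hlx1 was 1.87-fold higher and called in 4 of 11. All settings refit the same plates or a part of them, so they are not independent support for genes picked this way.

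Wells with both class markers had aqp8a.1 at its cut-offs and a lyve1a UMI. Their Hox levels were 821, 728 and 853 CPM in plates 1, 2 and 3, against 732, 509 and 602 CPM in wells with neither. The difference, noticed after the values had been seen, was not tested.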
